A study of Macaca mulatta with 81 samples.

Results

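Blood T cells of 3 rhesus macaques were profiled on day 14 after an autologous hematopoietic cell transplant (Auto.D14, animals 200, 201 and 202) and set against those of 34 untransplanted animals (Healthy.Control). The 3 arrays were chosen by their title and make up 3 of the 81 arrays of the series. In an autologous transplant the animal receives its own hematopoietic cells, so no foreign graft is present. The labels give the prophylaxis of these animals as none. Also used were the same 3 animals on day 36 (Auto.D36, n = 3, prophylaxis none) and 3 recipients of an allogeneic graft on day 14 given FR104 (FR104.D14, n = 3, animals 22, 23 and 24), an antibody fragment that blocks the costimulatory receptor CD28. Each transplanted animal of these groups gave 1 array per day, and all arrays after transplant used here carry batch label 4. Of the healthy arrays, 6 are of batch 4, and 3 of those are the Auto.D14 animals before their transplant. Ages, genotypes and the conditioning before transplant are not given in the labels. Whether the autologous and FR104.D14 animals had the same conditioning is likewise not stated there.

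T cells that enter a compartment emptied by conditioning are known to divide in response to cytokines and self-peptides, a process called homeostatic expansion. Dividing T cells switch on the genes of DNA replication and mitosis, activated cells display inhibitory receptors such as LAG3, and resting naive cells hold a program of quiescence kept by factors such as TCF7 and FOXP1. Type I interferon, released in viral infection and tissue injury, induces a set of antiviral genes in most cell types. These are general facts about T cells and not results of these arrays.

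All values are log2 probe set signals as deposited. Differences are on the log2 scale from one limma fit with its SE, and the small number of arrays limits their precision. That fit has a term for the batch label, so each difference from healthy controls equals that from the 6 healthy arrays of batch 4. The other healthy arrays enter these differences only through the estimate of the spread. Healthy ranges, medians and means are over all 34 arrays. Values of the Auto.D14 arrays and of the own healthy arrays are given in the order of animals 200, 201 and 202. In sorted cells taken in bulk, fewer cells of a type and less RNA per cell cannot be told apart. Genes of T cell identity gave signal in both groups: CD5, a receptor of T cells, was at 10.05, 10.94 and 10.41 in Auto.D14, against 10.24 to 11.34 (median 10.82) in healthy arrays. LAT, the adaptor below the T cell receptor, was at 10.89, 10.80 and 10.63 in Auto.D14, against 10.22 to 10.92 (median 10.65). The CD3 genes themselves were not analysed here, and none of 5 identity genes tested passed in limma (0 at an unadjusted p under 0.05). CD8A, the CD8 coreceptor, was at 13.30, 12.05 and 13.07 in Auto.D14, against 11.62 to 12.75 in healthy arrays, a difference of 0.47 ± 0.19 with adjusted p 0.144.

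Array medians were 5.17 to 5.25 in Auto.D14 and 5.15 to 5.28 in healthy controls, a likeness largely set in advance by the normalization before deposit. The array of animal 202 stood apart in the control transcripts added for the hybridization. Their mean over 9 probe sets was 11.22, 11.45 and 12.47 in Auto.D14, against 11.01 to 11.79 in healthy arrays. The gap of this array between the 3' and 5' probe sets of actin, a measure of RNA or labelling quality, was 2.26. That is inside the range of 0.43 to 3.83 of the healthy arrays. In the added transcripts the FR104.D14 array of animal 23 was also above all healthy arrays, at 12.25. All Auto.D36 arrays lay below all healthy arrays in both measures. They were at 10.99, 10.80 and 10.94 for the added transcripts and at -0.34, -0.34 and -0.30 for the actin gap. Actin gaps under the healthy range were also found for Auto.D14 animal 200 (0.29) and all FR104.D14 arrays (0.017, 0.0275 and 0.37). The part of these measures in the comparisons with Auto.D36 and FR104.D14 was not tested.

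Of 11806 genes tested, 519 (4.4%) differed between Auto.D14 and healthy T cells at an adjusted p under 0.05, 292 (2.47%) higher and 227 (1.92%) lower. At least 2-fold differences made up 82 of the higher and 52 of the lower genes. With the animal as a replicate block 798 genes passed, 427 higher and 371 lower. Within batch 4 alone 90 passed, 75 higher and 15 lower. There the 6 healthy arrays and the differences are the same, and only the spread is estimated anew. Without the array of animal 202, 21 genes passed, 14 higher and 7 lower. Without animal 200, 566 passed, 346 higher and 220 lower, and 371 of them were among the 519. Without animal 201, 518 passed, 183 higher and 335 lower, and 339 of them were among the 519. Of the genes named below as higher or lower than in healthy T cells, IFI27, LAG3, MB, CD70, AUTS2 and MAML2 passed without animal 202. The calls of all others were lost. At an unadjusted p under 0.05 there were 2174 genes (18.4%), the share to set beside such counts for single lists below. The array of animal 202 lay furthest from the healthy mean in 186 of the 292 higher and 146 of the 227 lower genes. The median difference of the higher genes was 0.51, 0.70 and 0.84 in the 3 arrays, and that of the lower genes -0.67, -0.49 and -0.94. Against the own array before transplant, 280 of the 292 and 204 of the 227 moved the same way in all 3 animals. The genes were called on these same arrays, so this agreement is in part set by the calling. In the fit within the own animals 22 genes passed, 12 of them among the 519. The part of the added transcripts' signal in these calls was not tested beyond a fit with that signal as a covariate. In that fit 424 genes passed, 295 higher and 129 lower, and 356 of them were among the 519.

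**Figure D1:**
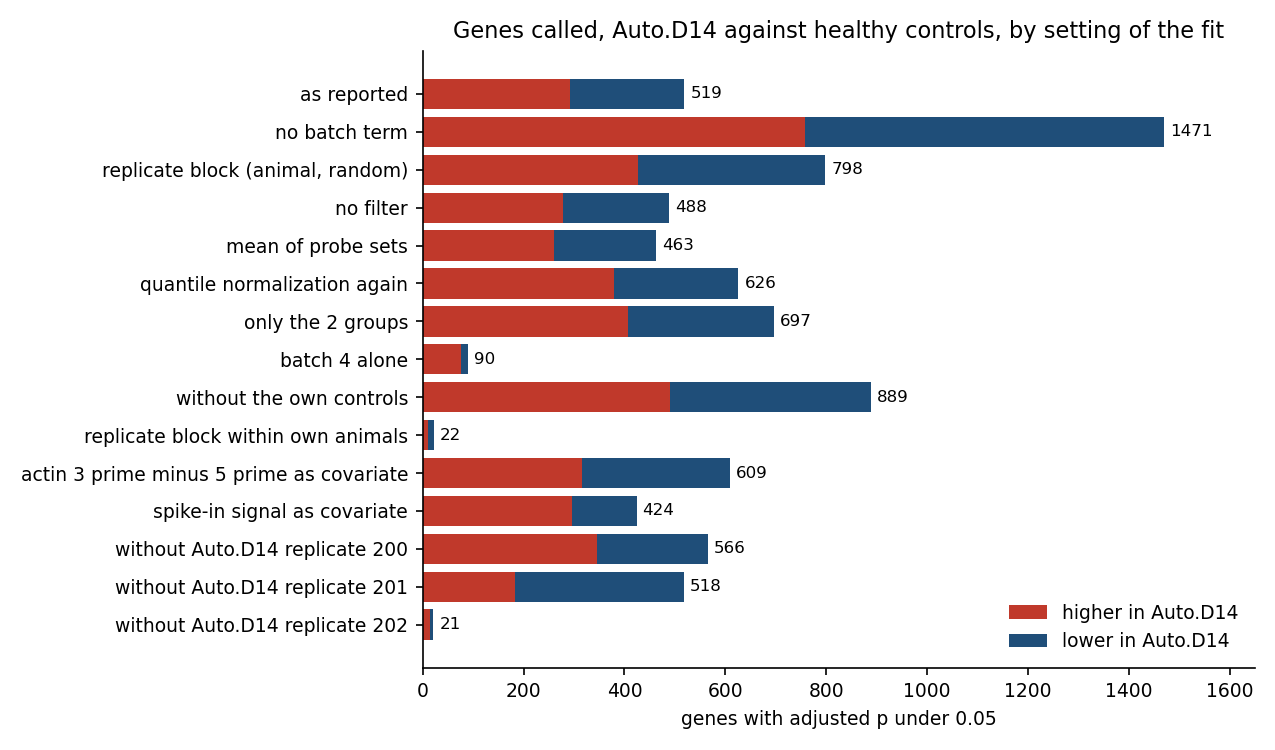
Number of genes with adjusted p under 0.05 in Auto.D14 against healthy controls (horizontal axis) under each setting of the fit (rows), higher genes in red and lower genes in blue. The count was 519 as reported, 90 within batch 4, 22 within the own animals and 21 without the array of animal 202.

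Genes of the type I interferon response were among the largest rises. IFI27, a mitochondrial protein induced by interferon, was at 9.81, 10.93 and 12.26 in Auto.D14, against 5.81 to 9.82 (median 7.21) in healthy arrays. The lowest Auto.D14 array thus lay just under the highest healthy one, and each animal was above its own earlier array (7.94, 8.70 and 6.79). IFI27 averaged 11.00 ± 1.23 (SD, n = 3) in Auto.D14 and 7.44 ± 0.89 (SD, n = 34) in healthy controls, a 12-fold rise (3.59 ± 0.59, adjusted p 0.000127). Without animal 202 the rise was 2.96 with adjusted p 0.0310, and within the own animals it was 3.19 with adjusted p 0.0600.

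ISG15, a ubiquitin-like protein joined to other proteins during the antiviral response, was at 9.05, 10.06 and 10.41 in Auto.D14, against 7.33 to 8.87 in healthy arrays, with no overlap. It rose by 1.96 ± 0.36 (adjusted p 0.000864). MX2, a GTPase that restricts viruses, was at 8.37, 8.95 and 9.66 in Auto.D14 and at 6.78 to 8.32 in healthy arrays. XAF1, an interferon-induced promoter of cell death, was at 8.70, 9.31 and 9.82 in Auto.D14, against 7.0 to 8.63. MX2 rose by 1.56 ± 0.34 (adjusted p 0.00328), XAF1 by 1.32 ± 0.32 (0.00912) and EPSTI1, a further interferon-induced gene, by 1.28 ± 0.35 (0.0215). Without animal 202 the differences of ISG15, MX2 and XAF1 were 1.67, 1.23 and 1.05, with adjusted p of 0.0635, 0.166 and 0.211.

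Not all of the interferon response list moved. Of 18 genes tested 5 rose and none fell, with a median difference of 0.47, against 0.011 over all genes. MX1 (0.92 ± 0.44), IFIT1 (0.99 ± 0.60) and IFIT3 (0.79 ± 0.37), all antiviral effectors, did not pass, nor did the sensor of double-stranded RNA RIGI (0.52 ± 0.24). OAS1, which starts RNA decay on sensing double-stranded RNA, and IRF7, the factor that amplifies the response, stood at -0.39 ± 0.14 and -0.05 ± 0.17. Without animal 202 only IFI27 of this list passed, with a list median of 0.56, and within the own animals none passed, at 0.53. The mean level of the 18 genes was 8.85, 9.31 and 9.36 in Auto.D14, against 7.89 to 8.85 in healthy arrays.

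Of 11 genes induced by interferon gamma or of antigen presentation 1 rose. B2M, the light chain of MHC class I, was at 14.68, 14.53 and 14.70 in Auto.D14, against 14.40 to 14.61, and rose by 0.14 ± 0.041 (adjusted p 0.0374). That call was lost without animal 202 (adjusted p 0.365), within batch 4 (0.346) and for the mean of its probe sets (0.13, adjusted p 0.0657). The other 10 genes did not pass, among them GBP2, a guanylate-binding protein of antimicrobial defense (1.17 ± 0.41), and TAP1, the peptide transporter for MHC class I (0.42 ± 0.14, adjusted p 0.0790).

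**Figure D2:**
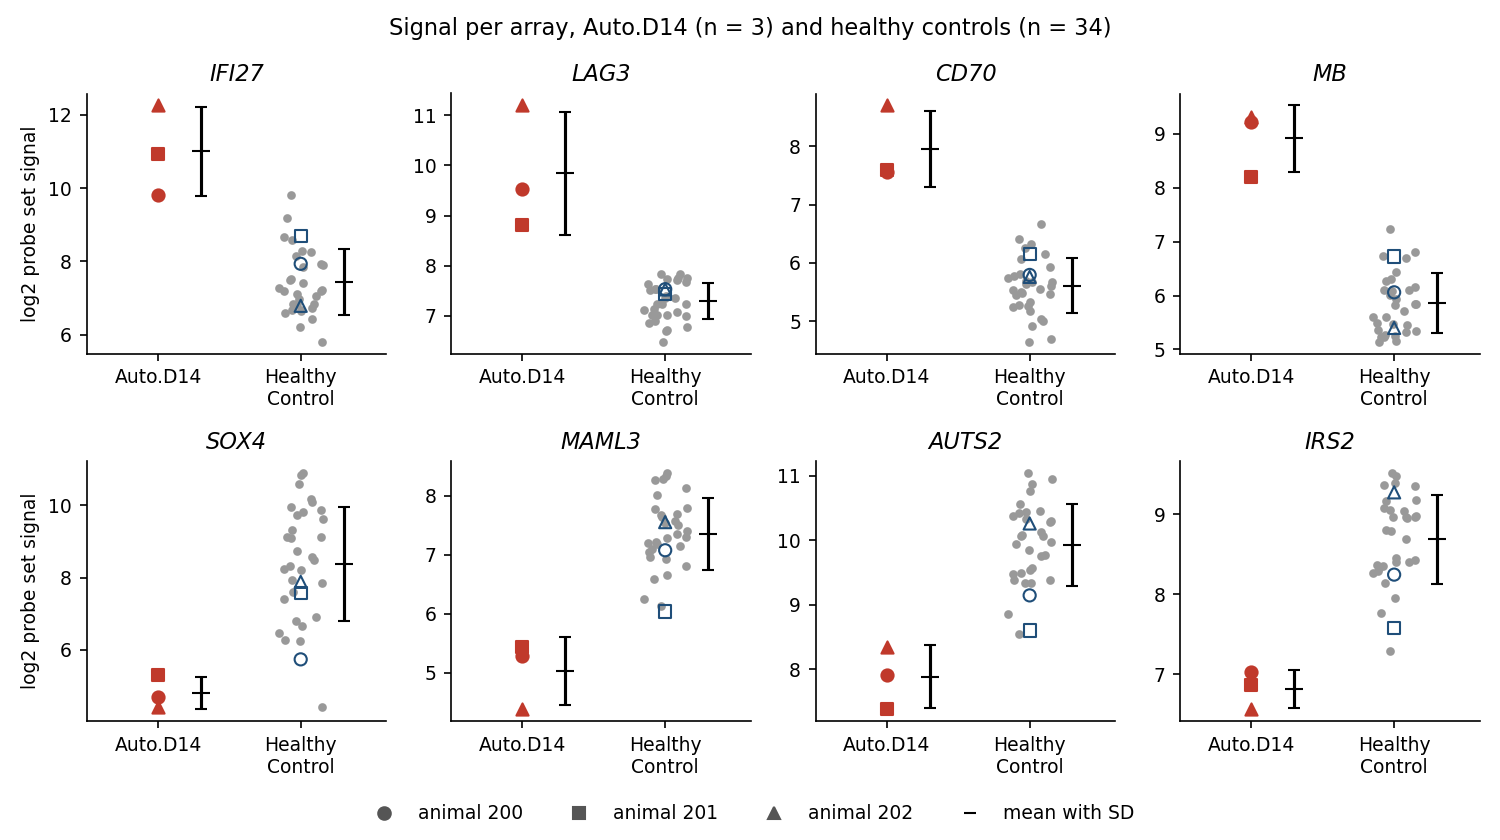
Log2 signal (vertical axes) of 8 genes in the Auto.D14 arrays (red, left) and in the healthy arrays (right), with symbols for animals 200, 201 and 202, open blue symbols for the same animals before transplant, grey points for the other healthy animals, and bars for the mean with SD. LAG3, CD70 and MB lie above and MAML3, AUTS2 and IRS2 below all healthy arrays, while IFI27 and SOX4 overlap with 1 healthy array each.

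The cell cycle genes rose as a broad group. Of 14 genes of S phase and DNA replication, 10 rose and none fell, with a median difference of 1.06, and 9 had all 3 Auto.D14 arrays above all healthy arrays, as 1.73% of all genes tested did. PCNA, the sliding clamp of the replicating polymerases, was at 11.18, 11.40 and 11.36 in Auto.D14, against 9.65 to 10.71 (median 10.23) in healthy arrays. It rose by 1.06 ± 0.24 (adjusted p 0.00518) and also passed in the fit within the own animals. UHRF1, which carries DNA methylation over to the new strand, was at 7.29, 7.43 and 7.75 in Auto.D14, against 4.82 to 6.62, a rise of 1.96 ± 0.46 (0.00779). GINS2, a part of the replicative helicase, rose by 1.47 ± 0.33 (0.00479), and CHAF1A, which places histones on new DNA, by 1.12 ± 0.26. The helicase subunits MCM2, MCM3, MCM4 and MCM5 rose by 0.83 to 1.15, with MCM5 the least.

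TYMS, which makes the thymidylate for DNA, was at 6.80, 6.73 and 7.85 in Auto.D14, against 4.05 to 6.04 in healthy arrays. It rose by 2.18 ± 0.55 (adjusted p 0.0126), while the 3 probe sets of TYMS disagreed, with differences from -0.014 to 2.18 and 1.22 for their mean. CDC6, which loads the helicase, CDC45, POLA1 and RRM1 stood at 0.83, 0.56, 0.36 and 0.20 and did not pass.

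Of 12 mitotic genes 9 rose and none fell, with a median of 1.11. MKI67, the protein behind the Ki-67 stain for dividing cells, was at 8.06, 7.66 and 8.36 in Auto.D14, against 5.90 to 7.38 (median 6.34) in healthy arrays. The groups did not overlap, and the rise was 1.61 ± 0.37 (adjusted p 0.00691), or 0.97 for the mean of its probe sets. CCNB2, a mitotic cyclin, was at 7.42, 7.44 and 7.98 in Auto.D14, against 4.71 to 6.69, and rose by 1.89 ± 0.48 (0.0145). TPX2, a factor of spindle assembly, rose by 1.02 ± 0.20 (0.00147), the cyclin CCNA2 by 1.22 ± 0.26 (0.00302), and TOP2A, which untangles chromosomes, by 1.93 ± 0.52 (0.0202). The mitotic kinases AURKA and AURKB and the cyclin CCNB1 stood at 0.61, 0.66 and 0.63 without passing. OIP5, a centromere protein, was at 5.66, 6.58 and 7.17 in Auto.D14, against 3.77 to 5.07, and SHCBP1, an adaptor of dividing cells, at 6.51, 6.38 and 7.47, against 3.90 to 5.54. They rose by 2.17 ± 0.46 and 2.02 ± 0.49, while their differences without animal 202 were 1.82 (adjusted p 0.142) and 1.67 (0.201).

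The cell cycle calls depended on the array of animal 202. Without it none of the 14 S phase and none of the 12 mitotic genes passed, at median differences of 0.89 and 0.98. In batch 4 alone, where the differences are the same by design, 8 and 7 passed. Within the own animals 2 and 1 passed, at medians of 0.96 and 1.01. At an unadjusted p under 0.05 in limma, 12 of 14 and 12 of 12 were higher with all 3 arrays. The mean level of the S phase genes was 7.79, 8.15 and 8.38 in Auto.D14, against 6.75 to 7.47 in healthy arrays, and that of the mitotic genes 7.40, 7.44 and 7.85, against 6.01 to 7.03. Each of the 3 arrays was thus above all healthy arrays in both means.

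**Figure D3:**
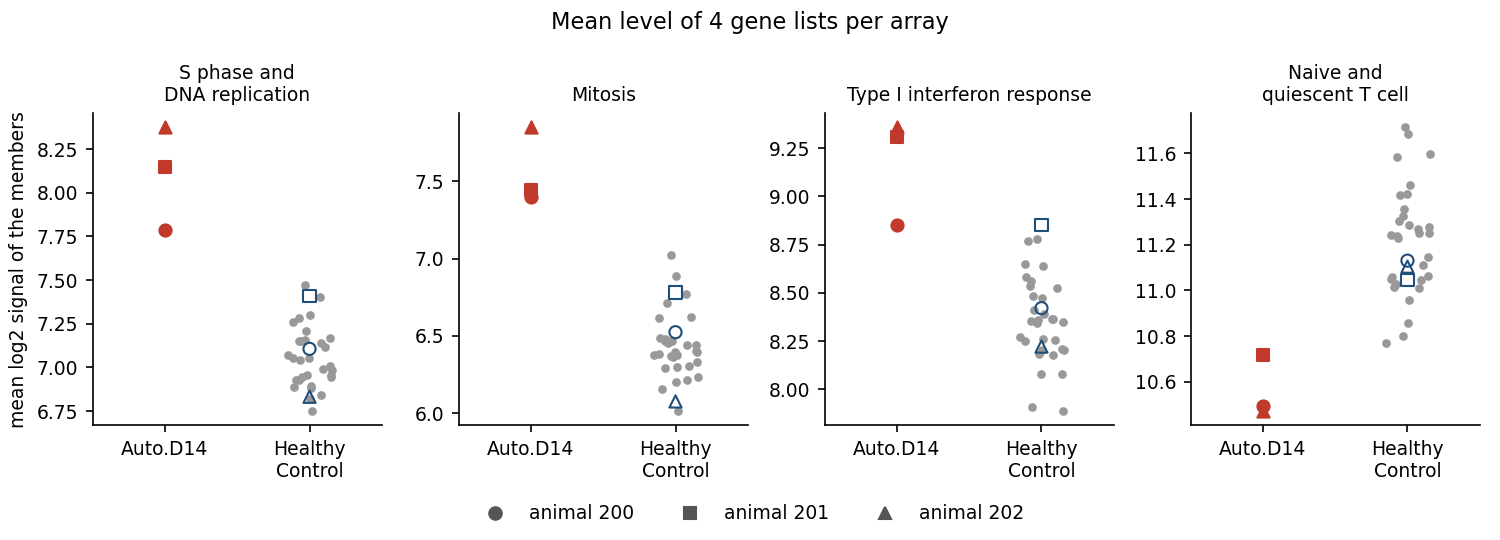
Mean log2 signal of the members of 4 gene lists (vertical axes) in each Auto.D14 array (red, left) and each healthy array (right; open blue symbols for the same 3 animals, grey for others). All 3 Auto.D14 arrays lie above the healthy range for the S phase and mitosis lists and below it for the naive T cell list, and animal 200 stands at the upper end of the healthy range for the interferon list.

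LAG3, an inhibitory receptor of activated T cells that binds MHC class II, was at 9.53, 8.80 and 11.20 in Auto.D14, against 6.48 to 7.84 (median 7.30) in healthy arrays. The groups did not overlap, and each animal was over 1 log2 unit above its own earlier value (7.53, 7.44 and 7.53). LAG3 averaged 9.84 ± 1.23 (SD, n = 3) in Auto.D14 and 7.29 ± 0.36 (SD, n = 34) in healthy controls, a 5.90-fold rise (2.56 ± 0.37, adjusted p 2.86e-05). It passed without animal 202 as well, at 1.88 with adjusted p 0.0179, but not within the own animals, at 2.35 with adjusted p 0.0680. LAG3 was the only one of 11 inhibitory receptor genes to pass with 1 probe set for each gene, while for the mean of probe sets 2 rose and 1 fell. ENTPD1, an ectoenzyme that breaks down ATP, lay above all healthy arrays at 6.77, 6.46 and 7.14 in Auto.D14, against 4.96 to 6.29, with a difference of 1.09 ± 0.36 and adjusted p 0.0626. CTLA4, TIGIT and HAVCR2, further inhibitory receptors, stood at 0.24 ± 0.40, 0.44 ± 0.26 and 0.26 ± 0.26.

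CD70, the ligand of the costimulatory receptor CD27, was at 7.56, 7.60 and 8.71 in Auto.D14, against 4.64 to 6.67 (median 5.62) in healthy arrays. It rose 5.13-fold (2.36 ± 0.37, adjusted p 7.58e-05), with no overlap, and passed without animal 202 (1.98, adjusted p 0.0179) and within the own animals. The other 12 of 13 costimulatory genes of the TNF family and its like did not pass. Among them TNFRSF4, the receptor OX40, its ligand TNFSF4, and TNFRSF18, the receptor GITR, stood at 0.73 ± 0.29, 0.72 ± 0.26 and 0.69 ± 0.27.

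No gene of 13 for cytotoxic effectors passed in limma, though 4 were higher at an unadjusted p under 0.05. The median was 0.66. Without the own healthy arrays 3 of the 13 passed, at a median of 1.12. That fit compares with the batch 4 arrays of healthy animals 22, 41 and 55 alone. Mean levels of the 13 genes were 9.15, 9.50 and 8.97 there, under the median of 9.68 over all healthy arrays. Within the own animals none passed, at a median of 0.21. GZMB, the granule protease granzyme B, was at 14.06, 13.37 and 14.25 in Auto.D14, against 11.38 to 13.73 in healthy arrays, a difference of 1.00 ± 0.49 (adjusted p 0.260). The same 3 animals had 13.38, 12.84 and 13.19 before transplant. IFNG, the cytokine interferon gamma, was at 6.32, 6.69 and 7.48 in Auto.D14, against 3.73 to 7.14, a difference of 1.56 ± 0.58 (0.113). GNLY, a pore-forming granule protein, stood at 1.08 ± 0.48 (0.197).

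Among the regulators of effector and regulatory T cells no difference passed. No gene of 9 effector regulators and none of 9 regulatory T cell genes passed, and 2 of each were higher at an unadjusted p under 0.05. TBX21, the master factor of Th1 cells, was at 11.25, 9.89 and 11.04 in Auto.D14, against 8.55 to 11.20. FOXP3, that of regulatory T cells, was at 4.94, 4.94 and 4.49 in Auto.D14, against 4.31 to 5.35. Their differences were 0.62 ± 0.49 and -0.083 ± 0.18. BATF, a factor of effector differentiation, came nearest at 0.75 ± 0.24 (adjusted p 0.0579).

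**Figure D4:**
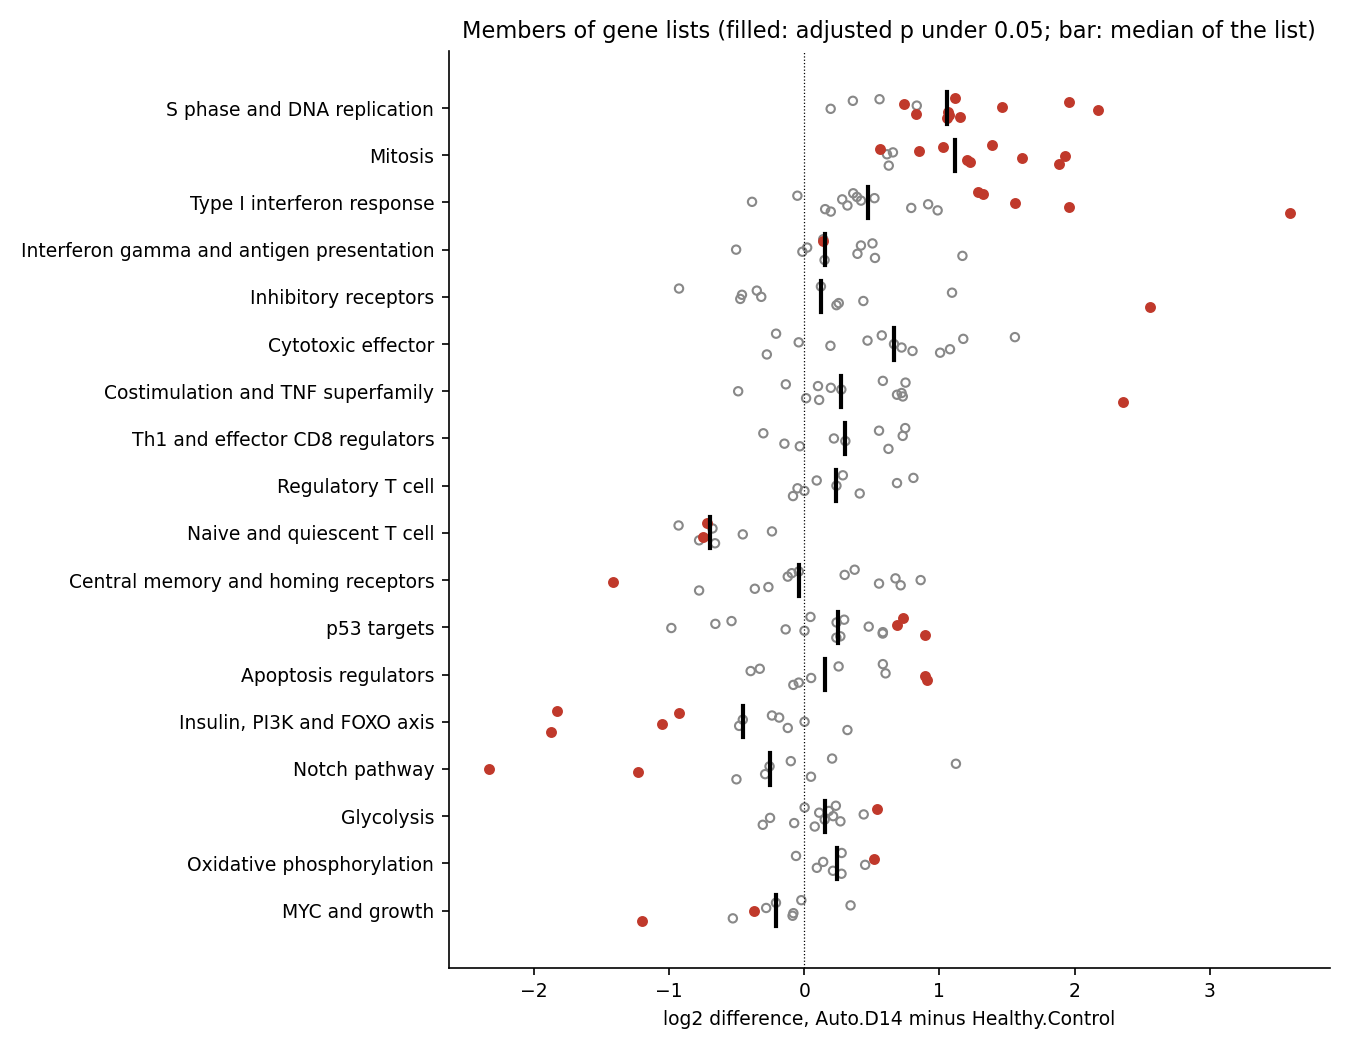
Log2 differences of Auto.D14 minus healthy controls (horizontal axis) for the tested members of 18 gene lists (rows), filled where the adjusted p was under 0.05, with a bar at the median of each list. The S phase and mitosis lists have medians of 1.06 and 1.11, and the naive T cell list has a median of -0.70 with all its points below 0.

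MB, myoglobin, the oxygen-binding protein of muscle, had the second largest rise after IFI27, with 1 probe set standing for each gene. It was at 9.23, 8.21 and 9.31 in Auto.D14, against 5.14 to 7.23 (median 5.84) in healthy arrays, and at 6.06, 6.72 and 5.40 in the same animals before transplant. The groups did not overlap, and MB averaged 8.92 ± 0.61 (SD, n = 3) in Auto.D14 and 5.86 ± 0.55 (SD, n = 34) in healthy controls, an 8.27-fold rise (3.05 ± 0.45, adjusted p 3.00e-05). It passed without animal 202 (2.85, adjusted p 0.0110) and in the fit within the own animals. The other 3 muscle genes tested did not pass: CKM, muscle creatine kinase, stood at 0.0056 ± 0.11, and the troponins TNNI1 and TNNT1 at -0.12 ± 0.13 and -0.12 ± 0.16.

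TP63, a relative of p53 known from epithelial stem cells, was at 8.33, 7.10 and 8.07 in Auto.D14, against 5.10 to 6.65 in healthy arrays, and rose by 2.01 ± 0.41 (adjusted p 0.00216), or 0.62 for the mean of its probe sets. SERPINE2, an inhibitor of thrombin and other proteases, was at 6.55, 8.78 and 9.67 in Auto.D14, against 5.28 to 6.63. Animal 200 lay within the healthy range, and the rise was 2.34 ± 0.56 (0.00912). This was the lowest of its 4 probe sets, the highest being at 3.55. Without animal 202 the rises of TP63 and SERPINE2 were 1.89 and 1.67, with adjusted p of 0.0768 and 0.263.

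Of 16 targets of p53, the transcription factor of the DNA damage response, 3 rose and none fell, with a median of 0.25. BAX, which opens the mitochondrial membrane in apoptosis, was at 10.12, 10.33 and 10.22 in Auto.D14, against 8.88 to 9.80 in healthy arrays. PHLDA3, an inhibitor of AKT, was at 7.41, 7.52 and 7.47 in Auto.D14, against 6.37 to 7.14, and DDB2, which recognises damaged DNA, at 8.71, 8.93 and 9.04, against 7.73 to 8.62. None of these 3 overlapped with the healthy arrays. They rose by 0.90 ± 0.19, 0.69 ± 0.15 and 0.73 ± 0.19, with adjusted p of 0.00254, 0.00287 and 0.0158. Without animal 202 their differences were 0.90, 0.69 and 0.66, with adjusted p of 0.0594, 0.0635 and 0.195.

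CDKN1A, the cell cycle inhibitor p21, and MDM2, which degrades p53, stood at 0.24 ± 0.26 and 0.27 ± 0.22 and did not pass. SESN1, a stress-response target of p53, was at 8.56, 9.14 and 8.18 in Auto.D14, against 8.91 to 10.74, a difference of -0.98 ± 0.31 (adjusted p 0.0546). BCL2L11, the death-promoting BH3 protein BIM, was at 11.12, 10.41 and 11.17 in Auto.D14, against 9.46 to 10.47, and rose by 0.91 ± 0.25 (0.0195; 0.242 without animal 202). With BAX it made 2 of 10 apoptosis regulators that rose. BCL2 and MCL1, which protect from apoptosis, stood at -0.080 ± 0.21 and 0.051 ± 0.13.

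SOX4, a transcription factor of developing T cells and of recent thymic emigrants, had the largest fall with 1 probe set for each gene. It was at 4.70, 5.31 and 4.42 in Auto.D14, against 4.43 to 10.90 (median 8.41) in healthy arrays, and at 5.74, 7.57 and 7.88 in the same animals before transplant. The healthy arrays spread over more than 6 log2 units, and 1 of them lay within the Auto.D14 range. SOX4 averaged 4.81 ± 0.45 (SD, n = 3) in Auto.D14 and 8.37 ± 1.58 (SD, n = 34) in healthy controls, an 11.7-fold fall (-3.55 ± 0.96, adjusted p 0.0197). Without animal 202 the difference was -3.36 with adjusted p 0.195, and within the own animals -2.26 with 0.0590. The 4 probe sets of SOX4 ranged from -3.55 to -0.024, and their mean differed by -1.76 (adjusted p 0.0354). The value of animal 202 lies under 4.65, the value used to filter weak genes, and that of animal 200 just above it. With 1 probe set for each gene, SOX4 was the only one of 7 genes of thymic emigrants and progenitors to pass. PECAM1, a surface protein that marks recent thymic emigrants, was at 10.19, 11.38 and 11.30 in Auto.D14, against 11.04 to 12.46, a difference of -0.85 ± 0.28 (0.0599). For the mean of probe sets 3 of the 7 genes fell. Beside SOX4 these were PECAM1 (-0.93, adjusted p 0.0432) and TOX, a further member (-0.50, 0.0458).

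The naive and quiescence list leaned lower, with 2 of 8 genes that fell, none that rose and a median of -0.70. FOXP1, a factor that keeps naive T cells quiescent, was at 11.73, 11.59 and 11.38 in Auto.D14, against 11.94 to 12.72 in healthy arrays, with no overlap, and fell by 0.75 ± 0.16 (adjusted p 0.00220), while the difference within the own animals was -0.48 (0.183). TXNIP, a brake on glucose uptake, was at 12.80, 12.56 and 12.31 in Auto.D14, against 12.72 to 13.80, and fell by 0.72 ± 0.21 (0.0293). TCF7, which keeps T cells in a naive or stem-like memory state, was at 11.91, 12.64 and 12.27 in Auto.D14, against 12.42 to 13.42, a difference of -0.66 ± 0.21 (0.0583). CCR7, the receptor for entry into lymph nodes, was at 8.75, 9.27 and 8.89 in Auto.D14, well within the healthy range of 8.16 to 10.84, a difference of -0.78 ± 0.43 (0.332). With the animal as a block 4 of the 8 fell, and without animal 202 none passed, at a median of -0.62. For the mean of probe sets 2 of the 8 fell, but these were TCF7 (-0.87, adjusted p 0.0172) and KLF7, a further member (-0.76, 0.0346). FOXP1 and TXNIP then stood at -0.59 (0.0790) and -0.94 (0.190) without passing.

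CXCR4, the receptor for the marrow chemokine CXCL12, fell by 1.41 ± 0.38 (adjusted p 0.0202). Its values were 10.17, 9.25 and 7.97 in Auto.D14, against 9.52 to 11.44 in healthy arrays, and 11.04, 10.90 and 11.05 in the same animals before. Animal 200 lay within the healthy range and animal 202 far below it, and without animal 202 the difference was -0.83 with adjusted p 0.447. It was the only one of 13 memory and homing receptors to pass.

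Both MAML2 and MAML3, coactivators of the Notch transcription complex, fell. MAML3 was at 5.28, 5.44 and 4.38 in Auto.D14, against 6.04 to 8.39 (median 7.33) in healthy arrays, the lowest of which was animal 201 before its transplant. MAML2 was at 8.20, 8.89 and 8.0 in Auto.D14, against 8.90 to 10.16. The falls were 2.33 ± 0.43 (1.33 for the mean of its probe sets) and 1.23 ± 0.21, with adjusted p of 0.000864 and 0.000373, and only MAML2 passed without animal 202 (-1.05, adjusted p 0.0391; MAML3 -2.01, 0.0635). The other 7 of 9 Notch pathway genes did not pass, and DTX1, a target and regulator of Notch, stood at 1.12 ± 0.38 (0.0724).

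Of 11 genes around insulin signaling, PI3K and the FOXO factors, 4 fell and none rose, with a median of -0.45. IRS2, an adaptor of the insulin receptor, was at 7.03, 6.87 and 6.56 in Auto.D14, against 7.29 to 9.52 (median 8.80) in healthy arrays, a fall of 1.87 ± 0.39 (adjusted p 0.00255). TSC22D3, the glucocorticoid-induced leucine zipper protein, was at 11.88, 12.21 and 11.51 in Auto.D14, against 12.31 to 13.26, a fall of 0.93 ± 0.20 (0.00302), and it passed within the own animals. PIK3IP1, a brake on PI3K, fell by 1.05 ± 0.28 (0.0173). SWAP70, which binds a PI3K product, fell by 1.83 ± 0.47 (0.0157), but its 3.21 at most in Auto.D14 lies under 4.65, the value used to filter weak genes. The list's count was 0 without animal 202, at a median of -0.33.

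AUTS2, a chromatin regulator studied in neurons, was at 7.91, 7.37 and 8.35 in Auto.D14, against 8.54 to 11.04 (median 10.02) in healthy arrays. It fell by 2.02 ± 0.43 (adjusted p 0.00276), with no overlap, and passed without animal 202 (-2.26, 0.0217). RECK, a membrane inhibitor of metalloproteases, fell by 1.52 ± 0.32 (0.00223) at 5.79, 5.97 and 4.39 in Auto.D14, against 5.92 to 7.99. Its overlap was 1 Auto.D14 array within the healthy range. TANC2, a scaffold protein, and MOXD1, a monooxygenase-like protein, fell by 1.53 ± 0.37 and 1.54 ± 0.37, with MOXD1 in all 3 Auto.D14 arrays under the filter value. Without animal 202 the differences of RECK, TANC2 and MOXD1 were -1.02, -1.37 and -1.41, with adjusted p of 0.203, 0.166 and 0.148. For the mean of their probe sets they were -0.80, -0.79 and -0.99.

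MYC, the driver of growth in activated T cells, was at 8.19, 9.37 and 9.39 in Auto.D14, against 9.02 to 10.97 (median 10.16) in healthy arrays. It fell by 1.20 ± 0.34 (adjusted p 0.0279), the lowest array being that of animal 200. FBL, the methylase of ribosomal RNA, was at 12.29, 12.33 and 12.36 in Auto.D14, against 12.40 to 12.97, and fell by 0.37 ± 0.11 (0.0328). These were 2 of 9 growth genes. Without animal 202 the adjusted p were 0.111 for MYC and 0.183 for FBL. In metabolism, LDHA, which makes lactate, rose by 0.54 ± 0.11 (0.00262) as 1 of 13 glycolysis genes, and COX7B, a subunit of cytochrome oxidase, by 0.51 ± 0.13 (0.0171) as 1 of 8 genes of oxidative phosphorylation. Without animal 202 their adjusted p were 0.164 and 0.201. None of 8 cholesterol synthesis genes, 13 cytokine receptor and feedback genes and 9 immediate early genes passed in limma, with 1 of each at an unadjusted p under 0.05.

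Markers of other blood cells were also measured. None of 12 monocyte and neutrophil markers passed (2 lower at an unadjusted p under 0.05), and their mean level was 5.52, 5.65 and 6.33 in Auto.D14, against 4.77 to 7.03 in healthy arrays. S100A9, a calcium-binding protein of neutrophils and monocytes, was at 6.36, 7.04 and 9.75 in Auto.D14, against 4.14 to 8.51, so that animal 202 exceeded all healthy arrays (1.74 ± 0.99, adjusted p 0.351). None of 7 natural killer cell and none of 7 erythroid and platelet markers passed, and none was at an unadjusted p under 0.05. Means of these lists were 9.09, 8.52 and 8.48 in Auto.D14 against 7.64 to 10.02, and 6.75, 6.83 and 7.27 against 5.57 to 7.55.

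Of 5 B cell markers 1 fell, and their mean was 5.09, 5.37 and 5.30 in Auto.D14, against 5.29 to 6.30 in healthy arrays. MS4A1, the B cell antigen CD20, was at 3.09, 3.38 and 3.31 in Auto.D14, against 3.72 to 6.68 (median 4.89). It fell by 1.81 ± 0.48 (adjusted p 0.0188). The own healthy arrays, at 6.58, 5.05 and 6.68, included the highest healthy value. Without these 3 arrays the difference is that from the batch 4 arrays of healthy animals 22, 41 and 55 alone. It was -0.77 with adjusted p 0.369. A difference from all other healthy arrays was not tested. Within batch 4 the adjusted p was 0.221 and without animal 202 it was 0.159. The mean of its probe sets differed by -0.89. JCHAIN, the joining chain of antibodies, was at 2.95, 2.98 and 2.74 in Auto.D14, against 3.29 to 6.85, and fell by 1.43 ± 0.41 (0.0320) as 1 of 6 plasma cell markers. CD33, a receptor of myeloid cells, fell by 1.66 ± 0.46 (0.0233) at 4.58, 5.46 and 4.94 in Auto.D14, against 5.73 to 8.68 (0.183 without animal 202). FLT3, a receptor of progenitors, fell by 0.64 ± 0.19 (0.0359) as 1 of 4 stem and progenitor genes. Without the own healthy arrays, and so against animals 22, 41 and 55 alone, JCHAIN and FLT3 differed by -0.49 and -0.24. The adjusted p were 0.485 and 0.477. The Auto.D14 values of MS4A1, JCHAIN and FLT3 all lie under 4.65. The part of these cells in the other results was not tested.

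How far the day 14 state differed from day 36 was examined in the same 3 animals. The day 36 arrays lay below all day 14 and all healthy arrays in the actin gap and in the signal of added transcripts. The part of this in the calls was not tested. Of the 11806 genes 115 (0.974%) differed, 14 (0.119%) higher and 101 (0.855%) lower on day 14. With the animal as a replicate block 339 differed, 109 higher and 230 lower, and after renewed quantile normalization 136, 47 higher and 89 lower. Leaving out the day 14 array of animal 200, 201 or 202 gave 565, 7 and 8 genes, and leaving out the day 36 arrays gave 42, 28 and 61. With only these 2 groups in the fit none passed in limma, with 898 at an unadjusted p under 0.05, and none with the block within the own animals, with 1703.

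CX3CR1, the fractalkine receptor of cytotoxic effector cells, was at 8.70, 5.52 and 6.30 on day 14, against 9.84, 9.61 and 9.23 on day 36. The days did not overlap, and the difference of -2.72 ± 0.53 (adjusted p 0.00208) was the largest among the lower genes. On day 14 animals 201 and 202 lay within the healthy range of 5.13 to 7.45 and animal 200 above it. CD4, the coreceptor of helper T cells, was at 6.88, 6.43 and 6.29 on day 14, against 7.35, 7.46 and 7.68 on day 36 (-0.96 ± 0.25, adjusted p 0.0384). CD6, a T cell adhesion receptor, was at 8.05, 6.94 and 7.30 on day 14, against 8.63, 8.78 and 8.94 on day 36 (-1.35 ± 0.33, 0.0246). Both lay inside the healthy range on day 14 (6.04 to 7.27 for CD4, 6.64 to 8.21 for CD6) and above it on day 36.

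TST, a mitochondrial sulfur transferase, was at 9.10, 6.89 and 6.80 on day 14, against 9.77, 10.15 and 9.77 on day 36 (-2.30 ± 0.43, adjusted p 0.00141). LOC709412, which has no gene name here, differed by -2.26 ± 0.62 (0.0495). Higher on day 14 were CARMIL2, a costimulation adaptor linked to CD28, by 0.78 ± 0.20 (0.0270), MRPL52, a mitochondrial ribosomal protein, by 0.76 ± 0.19 (0.0270), and CARM1, an arginine methylase, by 0.68 ± 0.15 (0.00665). CARMIL2 was at 6.50, 7.37 and 7.44 on day 14 and at 6.16, 6.20 and 6.61 on day 36, with overlap between the days. For the mean of probe sets the differences of LOC709412 and CARMIL2 were -0.70 and 0.37, with adjusted p of 0.0962 and 0.158.

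The genes that led the comparison with healthy animals did not pass between the days. IFI27 was at 9.81, 10.93 and 12.26 on day 14, against 11.02, 11.78 and 10.32 on day 36 (-0.038, adjusted p 0.993). LAG3 was at 9.53, 8.80 and 11.20 on day 14, against 8.92, 10.19 and 9.51 on day 36 (0.30, 0.862). MKI67 was at 8.06, 7.66 and 8.36 on day 14, against 8.59, 8.37 and 7.81 on day 36 (-0.23, 0.909). In each of these 3 genes animal 202 was lower on day 36 than on day 14, and animal 201 was higher. None of the 14 S phase and none of the 12 mitotic genes passed between the days, at medians of -0.22 and -0.069. Against the same healthy arrays, 1976 genes (16.7%) differed on day 36, 926 (7.84%) higher and 1050 (8.89%) lower. On that day 13 of 14 S phase genes were higher and none lower. Of 18 interferon genes 8 were higher and 1 lower. These day 36 counts were not repeated with an array left out.

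**Figure D5:**
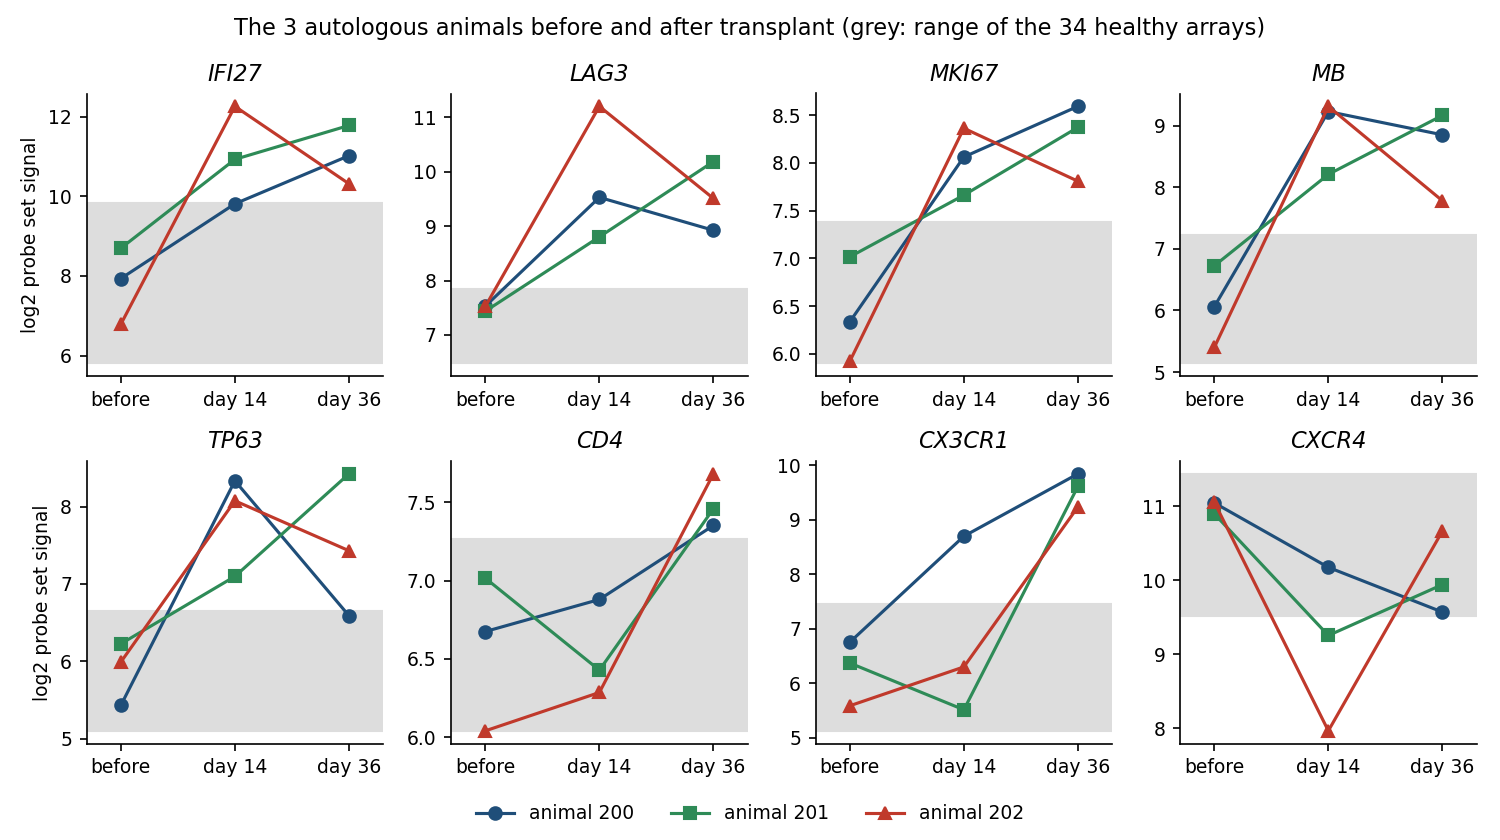
Log2 signal (vertical axes) of 8 genes in the 3 autologous animals before transplant, on day 14 and on day 36 (horizontal axes, not to scale in time), with the range of the 34 healthy arrays in grey. CX3CR1 and CD4 are higher on day 36 than on day 14 in each animal, while IFI27, LAG3 and MKI67 go opposite ways in animals 201 and 202 after day 14.

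The comparison with FR104.D14 set the autologous animals beside recipients of a foreign graft on the same day. The groups differ in the graft, in FR104 and in the animals, and these cannot be told apart here. Between them 29 genes (0.246%) differed, 15 (0.127%) higher and 14 (0.119%) lower in Auto.D14, and after renewed quantile normalization 57, 38 higher and 19 lower. Without one Auto.D14 array at a time 17 to 33 passed, 17 being without animal 202. Without FR104.D14 animal 22, 23 or 24, 14, 0 and 15 passed, the 0 with 916 genes at an unadjusted p under 0.05 in limma. The array of animal 23 is the one with the high signal of added transcripts, whose part in these calls was not tested.

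TP63 and BDKRB1, the bradykinin B1 receptor, were higher in the autologous animals. TP63 was at 8.33, 7.10 and 8.07 in Auto.D14, against 6.67, 5.32 and 5.57 in FR104.D14 (1.98 ± 0.48, adjusted p 0.0476; 0.56 for the mean of probe sets). BDKRB1 was at 11.62, 10.32 and 11.50 in Auto.D14, against 8.82, 8.04 and 9.74 in FR104.D14 (2.28 ± 0.53, 0.0367; 1.11 and 0.0661 for the mean of probe sets), with the healthy arrays at 9.70 to 11.65. LOC722305, unnamed here, was at 11.93, 10.72 and 10.34 in Auto.D14, against 6.27, 4.60 and 7.69 in FR104.D14 and 8.70 to 11.62 in healthy arrays (4.81 ± 0.89, 0.00467). For BDKRB1 2 and for LOC722305 all 3 FR104.D14 arrays lay under the healthy range, and the Auto.D14 arrays within it or, for animal 200 in LOC722305, above it.

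Lower in the autologous animals was MYC, at 8.19, 9.37 and 9.39 in Auto.D14, against 10.98, 11.04 and 10.73 in FR104.D14 (-1.93 ± 0.40, adjusted p 0.00913). The FR104.D14 values of 10.98 and 11.04 lay above all healthy arrays, and the Auto.D14 value of 8.19 below them. KIR3DH, a killer cell immunoglobulin-like receptor of macaques, was at 5.30, 5.09 and 5.20 in Auto.D14, against 8.02, 7.93 and 6.58 in FR104.D14 (-2.32 ± 0.46, 0.00733). PLS3, an actin-bundling protein, was at 3.18, 3.50 and 3.77 in Auto.D14, against 6.41, 6.99 and 5.66 in FR104.D14 (-2.87 ± 0.68, 0.0397; -1.51 for the mean of probe sets). The Auto.D14 values of KIR3DH and PLS3 lay within the healthy ranges of 4.62 to 6.60 and 2.71 to 4.85. Those of PLS3 are also under 4.65, the value used to filter weak genes. LOC699418 differed by -3.79 ± 0.90 (0.0397).

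The genes that led the comparison of the autologous with healthy animals did not pass against FR104.D14. IFI27 was at 9.81, 10.93 and 12.26 in Auto.D14, against 11.86, 11.56 and 10.79 in FR104.D14 (-0.40, adjusted p 0.874), and LAG3 at 9.53, 8.80 and 11.20, against 10.38, 10.47 and 9.95 (-0.43, 0.756). MB was at 9.23, 8.21 and 9.31 in Auto.D14, against 6.17, 8.64 and 7.77 in FR104.D14, a difference of 1.39 that did not pass (0.273). SOX4 was at 4.70, 5.31 and 4.42 in Auto.D14, against 5.66, 6.72 and 7.47 in FR104.D14, without overlap and without passing (-1.81, 0.556). None of the S phase or mitotic genes passed, at medians of 0.081 and -0.098.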

How the data were processed

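CD3 T cells sorted from blood were measured on Affymetrix rhesus arrays of 52865 probe sets. The deposited values are log2 signals, made by the authors with RMA in affy, per the submitters' processing notes; versions are not given there. Among healthy arrays the means of the batches were so alike that 61.0% of probe sets had p above 0.95 in an F test, so the log2 values seem to carry a batch adjustment made before deposit, which no source used here states. It may understate the spread. Of the probe sets 24969 had 1 gene in the platform's table, 361 several and 27535 no name here. The probe set with the highest mean stood for each of 14132 genes, and the 11806 genes with 2 or more arrays over the 40th percentile (4.65) were kept.

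In R 4.3.3, limma 3.58.1 (lmFit, eBayes with trend) was run on the 81 arrays together, with terms for the group and the batch label (residual degrees of freedom 62). Tests are 2-sided, with Benjamini-Hochberg adjustment over all genes of a comparison and a threshold of 0.05. P-values measure the spread between arrays within groups, pooled over all groups of the series. The 81 arrays come from 50 animals, and this fit treated arrays of the same animal as independent. The comparison between days in the same autologous animals was thus unpaired in this fit.

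Named were 4 marker genes, the 10 largest rises and 10 largest falls (identifiers without a gene name passed over) with all 3 arrays on the same side of the healthy mean, up to 4 members with the smallest adjusted p of each of 32 gene lists, a fixed set, and the 3 largest rises and falls of the other comparisons. Further list members are given with their list, and those, such as EPSTI1 and CDC6, were chosen after their values were seen. Of 394 list genes 286 were tested. The members, lists and comparisons were chosen with earlier results of these data known. Replicate numbers are the animals: Auto.D14 arrays correlated with the own healthy array at 0.33, 0.18 and 0.30 and with the own day 36 array at 0.36, 0.21 and 0.23, after group means were removed. The animal was fitted as a random block with limma and statmod 1.5.0 as an alternative. Other alternatives left out the batch term, the filter, other groups, the own controls or 1 array, averaged probe sets, normalized quantiles again, used batch 4 or the own animals alone, or added actin 3' to 5' or, after the data were seen, spike-in signal as a covariate. Sequences were not used here.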

Additional observations from a re-analysis of the deposited data

Results flagged for a closer look

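Differences between day 14 and day 36 in the same 3 animals passed the test for 8 of the named genes in the fit of all groups. None of the 8 passed with only these 2 groups, with the block within the own animals, or without the day 14 array of animal 201 or of animal 202. CX3CR1, TST and LOC709412 were lower on day 14 by -2.72, -2.30 and -2.26. CD6 and CD4 differed by -1.35 and -0.96. CARMIL2, MRPL52 and CARM1 were higher on day 14, by 0.78, 0.76 and 0.68. The array of animal 202 had a mean signal of added control transcripts of 12.47, above the highest healthy array at 11.79. Among 16975 probe sets without a gene name that passed the filter, 224 (1.32%) differed between Auto.D14 and healthy controls, 83 higher and 141 lower. Single outlying arrays were not tested for.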

How the results depend on the processing

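Against healthy controls, the count of 519 genes became 1471 without the batch term, 798 with the animal as replicate block, 889 without the own controls, 90 within batch 4 and 22 with the replicate block within the own animals (9 arrays, 4 residual degrees of freedom). Leaving out 1 Auto.D14 array gave 21 to 566, the 21 being without animal 202. It stayed within 1.5 times for no filter, averaged probe sets, quantile normalization, only the 2 groups, the actin covariate and the spike-in covariate (463 to 697 and, for spike-in, 424). Of the 48 named genes that passed, 6 also passed without animal 202, 23 within batch 4 and 7 within the own animals. No named gene that passed changed its sign. Within batch 4 and with only the 2 groups the differences equal those of the fit of all arrays, so no sign could change there. Without the own controls the differences are from the batch 4 arrays of healthy animals 22, 41 and 55. The replicate block ended none of these 48 calls and added 13 among the other 99 named genes. Day 14 against day 36 gave 115 genes, 339 with the replicate block, 369 with averaged probe sets, and 0 with only the 2 groups or with the block within the own animals (1703 at an unadjusted p under 0.05), and 7 to 565 with 1 array left out. Auto.D14 against FR104.D14 gave 29 genes, 61 without the batch term, 57 after quantile normalization, 17 with only the 2 groups, and 0 to 33 with 1 array left out. The cause of these moves was not tested. Signal limits MS4A1, JCHAIN, FLT3, SWAP70, MOXD1 and PLS3, whose Auto.D14 values lie under the filter value.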
